A study of Mus musculus with 91 samples.

Results

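Expression of 10 genes of lipid droplets and of PPARγ target programmes was followed in the livers of 91 adult male mice, out of 18193 genes measured. The genes were taken by symbol: Fabp4, Cidea, Cideb, Cidec, Plin2, Plin4, Plin5, G0s2, Mogat1 and Pnpla2. All 10 had at least 1 probe set with a single gene symbol, and none was left out for a low value. Mice had a C57BL/6J background and formed 19 groups of 5, except 4 groups of 4, with 1 Affymetrix array per liver. The values are log2 expression values, so that a difference of 1 is a doubling, and 4 or 5 arrays a group limit how precise a mean can be.

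Treatments lasted 28 days unless stated. Phenobarbital (PB), at 0.05% (w/v) in drinking water, was given for 28 or 56 days and set against water controls of the same duration. Cyproterone acetate (CPA, 160 mg/kg) and 1,4-dichlorobenzene (DCB, 600 mg/kg), both by gavage, shared 1 corn oil control group. The other controls had received carboxymethylcellulose (CMC), in separate cohorts named Co1 to Co5. Wy-14643 (WY, 100 mg/kg by gavage), an agonist of PPARα, was set against Co1 (n = 4). Piperonyl butoxide (PBO, 600 mg/kg intraperitoneally, n = 4) was set against Co2, and CITCO (10 mg/kg intraperitoneally), an agonist of human CAR, against Co4. CITCO was also given to 5 hCAR/hPXR mice, which carry human in place of mouse CAR and PXR, with 5 CMC controls of that strain. Pioglitazone (Pio, 100 mg/kg by gavage), an agonist of PPARγ, was set against Co5 (n = 4). Methapyrilene HCl (MePy, 1000 ppm in food) was set against Co3 (n = 4), which is a CMC group although the compound was given in food.

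A lipid droplet is a core of triglyceride under a single layer of phospholipid, and its coat proteins decide how fast the fat is stored or released. Perilipins shield the surface, CIDE proteins let droplets exchange lipid and grow, and the lipase ATGL, encoded by Pnpla2, starts the breakdown of triglyceride. PPARγ switches on many of these genes in adipocytes and in fatty liver, while PPARα governs fatty acid oxidation in hepatocytes and also reaches several droplet genes.

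The stretches directly before the gene starts are shown for the members that changed with Wy-14643 and whose stretch, of 250 bases, overlaps no protein-coding gene in the table used (RefSeq, GRCm38.p6). They lie at chr1:78510810-78511059 (+ strand) for Mogat1, at chr6:113435761-113436010 (− strand) for Cidec, at chr1:193273189-193273438 (− strand) for G0s2 and at chr7:141454938-141455187 (+ strand) for Pnpla2. The Cidec stretch overlaps the predicted noncoding gene Gm52871. Each is written 5′ to 3′ on the strand of the gene, and capitals mark GGGCGG or its reverse complement, the core of a GC box.
Mogat1: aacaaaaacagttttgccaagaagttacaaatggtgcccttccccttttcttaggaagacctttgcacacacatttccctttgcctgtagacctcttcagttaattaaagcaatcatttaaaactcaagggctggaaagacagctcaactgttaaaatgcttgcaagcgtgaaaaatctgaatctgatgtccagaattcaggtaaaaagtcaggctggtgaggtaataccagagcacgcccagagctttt
Cidec: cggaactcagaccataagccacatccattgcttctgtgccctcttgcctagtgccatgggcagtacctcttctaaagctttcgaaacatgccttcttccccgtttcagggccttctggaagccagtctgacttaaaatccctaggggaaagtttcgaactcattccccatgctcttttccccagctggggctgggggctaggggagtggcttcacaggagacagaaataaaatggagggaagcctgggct
G0s2: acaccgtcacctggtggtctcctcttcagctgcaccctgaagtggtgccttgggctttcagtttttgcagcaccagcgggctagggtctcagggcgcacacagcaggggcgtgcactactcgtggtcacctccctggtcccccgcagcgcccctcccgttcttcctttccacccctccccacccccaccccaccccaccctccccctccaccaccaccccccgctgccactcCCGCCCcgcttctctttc
Pnpla2: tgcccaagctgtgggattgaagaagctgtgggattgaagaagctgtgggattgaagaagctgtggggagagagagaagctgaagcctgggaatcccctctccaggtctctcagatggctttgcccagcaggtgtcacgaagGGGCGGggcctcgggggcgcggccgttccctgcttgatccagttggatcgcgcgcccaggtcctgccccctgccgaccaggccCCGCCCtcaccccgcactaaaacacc
In these letters G0s2 has a GC box 18 bases before its start, Pnpla2 has 2, at 109 and 26 bases, and Mogat1 and Cidec have none. Windows of 250 bases were held for 8 of the 10 members, 10 windows in all, and Fabp4 and Cidea were not in the table. The motif was searched on both strands, as were those that follow, and was in 32.7% of all 32851 windows of this length and in 5 of the 10 windows of members. The element bound by PPARs is a tandem repeat spaced by a single base, searched as AGGNCANAGGNCA, and occurred in 0.338% of all windows and in 0 of the 10. The hexamer AGGTCA, which is a part of that repeat, was in 14.0% of all windows and in those of Plin2 and Plin5. A match is only a description of the letters, and elements outside these windows were not searched.

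Several groups and livers stood apart before any comparison of the droplet genes. Albumin (Alb), the main hepatocyte product, had group means from 15.07 to 15.21. Of the 11 measured hepatocyte markers, Alb included, 2 fell with Wy-14643 (Apoc3 by 0.22 and Serpina1c by 0.24) and 3 with DCB (Hnf4a by 0.54, Fgb by 0.37 and Apoa1 by 0.15). With CPA 2 fell (Hnf4a by 0.47 and Apoa1 by 0.14) and Apoc3 rose by 0.20, and none of the 11 passed in the other 7 comparisons. None of these calls held in fits to the compared groups alone. Array medians ran from 5.18 to 5.36. Cyp2b10, the cytochrome P450 gene that marks CAR activity, rose after PB, CPA, DCB and PBO, and with CITCO in hCAR/hPXR mice, the PBO call not holding in a fit to those 2 groups alone (adjusted p 0.469). It also rose in the livers labelled pioglitazone, from 5.55 ± 0.277 (SD, n = 4) in Co5 to 11.61 ± 0.487 (SD, n = 5), a log2 difference of 6.06 with a limma adjusted p of 1.17e-15. Where the label was methapyrilene, Cyp2b10 was 5.67 ± 0.569 (SD, n = 5) against 6.03 ± 0.796 (SD, n = 4) in Co3. Whether these groups received the compounds on their labels was not tested, and they are named by label throughout. WY replicate 2, MePy replicate 4, corn oil replicate 1 and Co5 replicate 2 lay apart from their groups in some of the droplet genes. Values without them are given beside some of the differences they moved. In whole liver, more cells with a transcript and more of it per cell cannot be told apart.

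**Figure D1:**
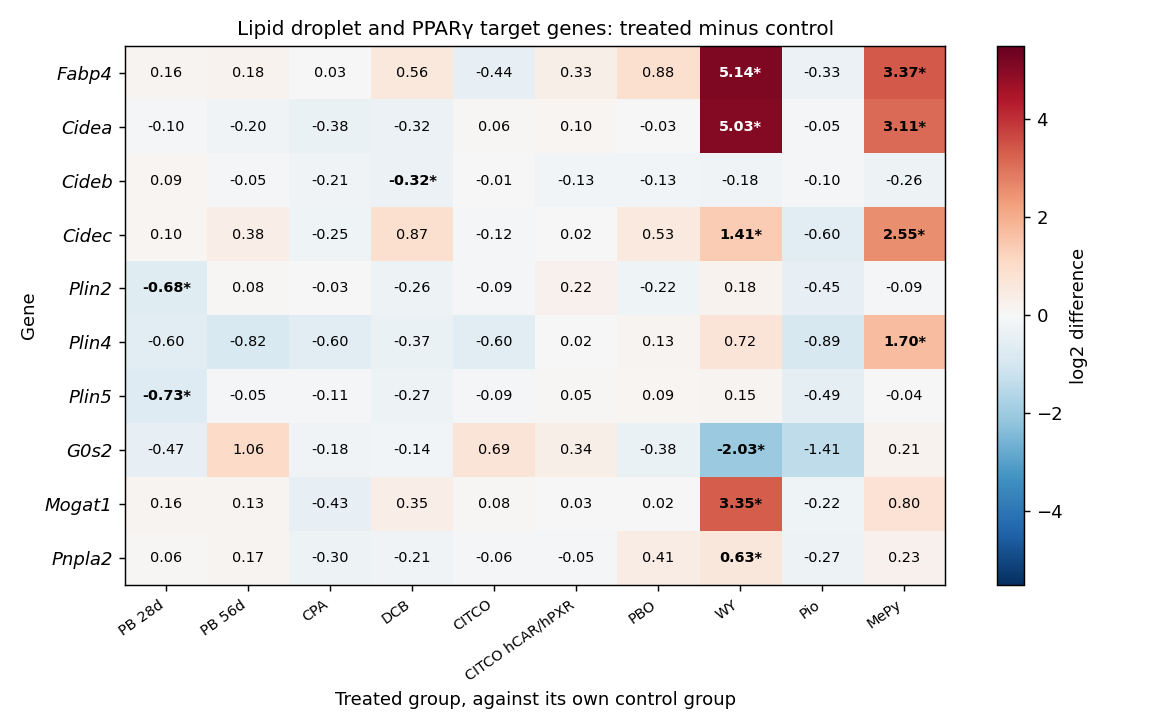
Log2 difference, treated minus control, for the 10 genes (rows) in the 10 comparisons (columns), on a colour scale from blue (lower) to red (higher). Bold values with an asterisk passed at a limma adjusted p below 0.05: 6 genes with Wy-14643, 4 in the livers labelled methapyrilene, 2 after 28 days of PB and 1 with DCB.

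Members passed, at a limma adjusted p below 0.05 over all genes, in 4 of the 10 comparisons. With Wy-14643 5 rose and 1 fell, where 5.55% of all genes rose and 5.09% fell. In the livers labelled methapyrilene 4 rose and none fell, where 0.148% of all genes rose. After 28 days of PB 2 fell, where 0.396% of all genes fell, and with DCB 1 fell, where 1.67% did. None passed after 56 days of PB (0.566% of all genes, either way), with CPA (5.32%), with CITCO in C57BL (0.0055%) or hCAR/hPXR mice (0.0989%), with PBO (0.808%) or in the livers labelled pioglitazone (0.022%). At an unadjusted p under 0.05 these comparisons held, in that order, 2, 2, 0, 0, 1 and 4 of the 10 members, where 6.78%, 17.8%, 4.8%, 7%, 12.4% and 7.66% of all genes were under it. The median difference over the members was 0.674 with Wy-14643, where the median of all genes was −0.038, and 0.514 against 0.008 in the livers labelled methapyrilene.

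Fabp4 encodes a carrier of fatty acids that is abundant in adipocytes and macrophages and is a classical PPARγ target. Its log2 values were 13.24, 11.17, 13.44, 13.25 and 12.22 in the 5 livers given Wy-14643 and 7.83, 7.58, 7.46 and 7.21 in Co1. The groups did not overlap, and the lowest treated liver stood well above the highest control. All treated livers were above all controls in 4.09% of all genes. The difference was 5.14 ± 0.540 (SE), or 35.4-fold, with a limma adjusted p of 7.82e-12 and an exact two-sided permutation p of 0.00794, the smallest these 9 livers can give, and it was 5.52 without replicate 2. In the livers labelled methapyrilene it was 9.22, 12.54, 10.25, 7.44 and 12.25, against 6.81, 7.49, 6.56 and 7.02 in Co3. Replicate 4 lay within the range of its controls and the other 4 above it. The difference was 3.37 ± 0.540, or 10.3-fold (limma adjusted p 0.000127, exact permutation p 0.0238), and between 2.82 and 4.09 when any of the 9 livers was left out, passing each time. The spread in this treated group, an SD of 2.13, was far above that of its controls, 0.392, and a fit to these 2 groups alone gave an adjusted p of 0.277. In the livers labelled pioglitazone Fabp4 ran from 6.69 to 7.80, within or below the control range of 7.07 to 8.23, with a difference of −0.33 (95% interval −1.41 to 0.74). In the other 7 comparisons the differences ran from −0.44 with CITCO in C57BL mice to 0.88 with PBO, and none passed.

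Cidea encodes a CIDE protein that is typical of brown adipocytes and of fatty liver. In the CMC, corn oil and water control groups its mean lay between 4.25 and 4.75, low values for this array. With Wy-14643 it was 11.15, 4.95, 12.29, 10.05 and 9.55, against 4.58, 5.00, 4.54 and 4.14 in Co1. Replicate 2 stayed in the control range and the other 4 livers were far above it. The difference was 5.03 ± 0.557, or 32.8-fold (limma adjusted p 5.09e-11, exact permutation p 0.0238), and 6.20 without replicate 2. In the livers labelled methapyrilene it was 8.65, 6.99, 9.77, 4.33 and 8.04, against 4.29, 4.27, 4.52 and 4.69 in Co3. Again 4 livers were high, and replicate 4 was at the control level. The difference was 3.11 ± 0.557, or 8.66-fold (limma adjusted p 0.000599, exact permutation p 0.0317), and 3.92 without replicate 4. A fit to these 2 groups alone gave an adjusted p of 0.300. In the 8 other comparisons Cidea differed by −0.38 to 0.10, and none passed. The lowest, with CPA, was −0.08 without corn oil replicate 1.

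Cidec, the CIDE gene of white adipocytes, drives the fusion of droplets into large ones. Among livers labelled methapyrilene its values were 7.95, 7.51, 8.25, 4.17 and 7.66, and in Co3 4.28, 5.06, 4.56 and 4.34. The 4 high livers lay within 1 log2 unit of each other and replicate 4 lay below every control. The difference was 2.55 ± 0.440, or 5.86-fold (limma adjusted p 0.000348, exact permutation p 0.0476), it was 3.28 without replicate 4, and a fit to these 2 groups alone gave an adjusted p of 0.300. With Wy-14643 the values were 6.62, 4.07, 7.43, 4.85 and 5.16, against 3.82, 4.60, 4.13 and 4.32 in Co1. The difference of 1.41 ± 0.440 passed with a limma adjusted p of 0.0265, but not in an exact permutation test (p 0.0952), in a fit to these 2 groups alone (0.159) or without WY replicate 1 or 3 or Co1 replicate 1 or 3, where it fell as low as 0.96. It was 1.80 without WY replicate 2. Cidec also stood at 0.87 ± 0.415 with DCB and did not pass, with 5.14, 6.27, 4.68, 5.45 and 6.03 in treated livers and a single control, corn oil replicate 1, at 6.36. Without that control it was 1.30 ± 0.418, which did not pass either (adjusted p 0.0659).

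Cideb, the CIDE gene of hepatocytes, takes part in the loading of lipid onto very low density lipoproteins. It was high in every liver, from 10.67 to 11.83, and moved little. With DCB it was 10.67, 11.07, 11.24, 11.02 and 11.27, against 11.62, 11.32, 11.34, 11.24 and 11.32 with corn oil. The ranges overlapped slightly, with treated livers up to 11.27 and controls down to 11.24. It fell by 0.32 ± 0.0876 (limma adjusted p 0.0214, exact permutation p 0.0159), but did not pass in a fit to these 2 groups alone (0.274) or without DCB replicate 1 or 4 or corn oil replicate 1, where the adjusted p reached 0.253. The difference was −0.25 without that corn oil liver. Among livers labelled methapyrilene all 5 were below all 4 of Co3, with a difference of −0.26 that did not pass (adjusted p 0.419), and 0.962% of all genes had all treated livers below all controls there. With Wy-14643, too, all 5 were below all of Co1, at −0.18 (adjusted p 0.226), as were 5.08% of all genes.

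**Figure D2:**
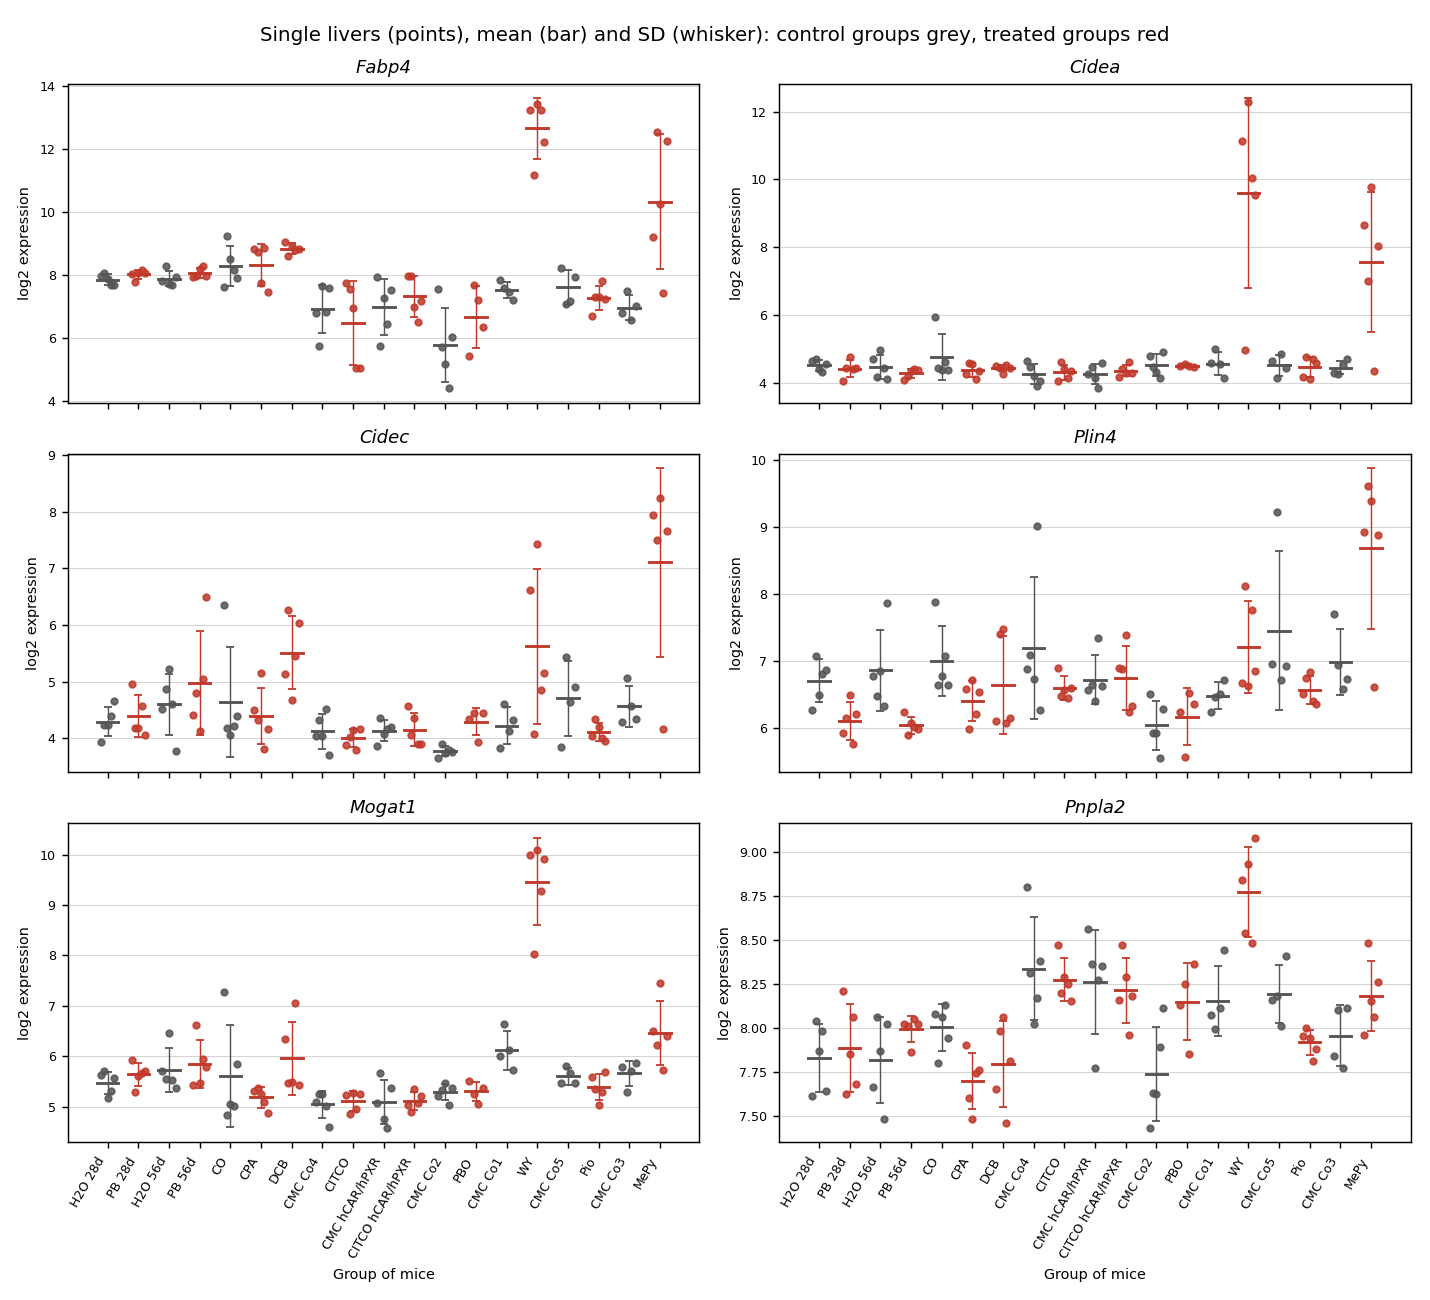
Log2 expression in each liver (points) with the group mean (bar) and SD (whisker) for Fabp4, Cidea, Cidec, Plin4, Mogat1 and Pnpla2 in the 19 groups, controls grey and treated red. The high values of Fabp4 and Cidea lie in the livers labelled WY and MePy, 1 liver of each of these groups is near the controls for Cidea, and Mogat1 has its highest group mean in WY.

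Plin4 encodes a perilipin that coats small, new droplets in adipocytes and is a PPARγ target. Among livers labelled methapyrilene it was 8.93, 9.61, 9.39, 6.61 and 8.88, and in Co3 7.70, 6.94, 6.58 and 6.73. The same 4 livers that were high in Cidec were high here, and replicate 4 lay in the control range. The difference was 1.70 ± 0.387, or 3.25-fold, with a limma adjusted p of 0.0252, and 2.22 without replicate 4. It did not pass an exact permutation test (p 0.0556), nor a fit to these 2 groups alone (0.359), nor without MePy replicate 1, 2, 3 or 5 or Co3 replicate 2, 3 or 4, where the adjusted p reached 0.159 and the difference 1.47. With Wy-14643 Plin4 stood at 0.72 ± 0.387, from 6.63 to 8.12 in treated livers and 6.24 to 6.72 in Co1, and did not pass (adjusted p 0.233). Among livers labelled pioglitazone it stood at −0.89 ± 0.387, which did not pass (95% interval −1.66 to −0.12, adjusted p 0.547), and 1 of its controls, Co5 replicate 2, was at 9.22 where the other 3 ran from 6.71 to 6.96. Without that control it was −0.30 ± 0.389 (adjusted p 0.998). After 56 days of PB all 5 livers (5.89 to 6.23) were below all water controls (6.33 to 7.87), at −0.82 with an adjusted p of 0.650, as was the case for 1.4% of all genes.

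Plin2, the perilipin found on most hepatocyte droplets, and Plin5, which ties droplets to mitochondria, fell after 28 days of PB. Plin2 was 12.66, 11.96, 12.89, 12.56 and 12.64 with PB and 13.15, 13.26, 13.56, 13.25 and 12.91 with water. Plin5 was 8.79, 8.31, 8.58, 8.65 and 8.80 with PB and 9.50, 9.52, 9.23, 9.41 and 9.12 with water. All 5 treated livers lay below all 5 controls for both genes, which held for 2.24% of all genes. Plin2 fell by 0.68 ± 0.173 (limma adjusted p 0.0279) and Plin5 by 0.73 ± 0.188 (0.0308), each with an exact permutation p of 0.00794. Plin2 did not pass without PB replicate 2 or 4 or water replicate 2, 3 or 4, with differences from −0.77 to −0.54 over the 10 livers left out in turn and an adjusted p of at most 0.176. Plin5 did not pass without PB replicate 2, 3 or 4 or water replicate 1, 2 or 4, with differences from −0.79 to −0.65 and an adjusted p of at most 0.109. Titles of the PB arrays of this duration end in "(2)", whose meaning the labels do not give.

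After 56 days of PB the same perilipins stood at 0.08 (95% interval −0.27 to 0.42) for Plin2 and −0.05 (−0.43 to 0.32) for Plin5. The change in response from 28 to 56 days was 0.76 ± 0.245 for Plin2 and 0.68 ± 0.266 for Plin5, with limma adjusted p of 0.683 and 0.902, so that a difference between the durations was not shown. In that limma test 0% of all genes passed, while 879 genes, 3 of them members, had an unadjusted p under 0.05. With Wy-14643 Plin2 differed by 0.18 (−0.19 to 0.54) and Plin5 by 0.15 (−0.24 to 0.55), and in the livers labelled methapyrilene by −0.09 and −0.04. Among livers labelled pioglitazone all 5 values of Plin5 (9.33 to 9.83) were below all of Co5 (9.88 to 10.38), at −0.49 with an adjusted p of 0.510, and 1.67% of all genes were ordered in that way.

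**Figure D3:**
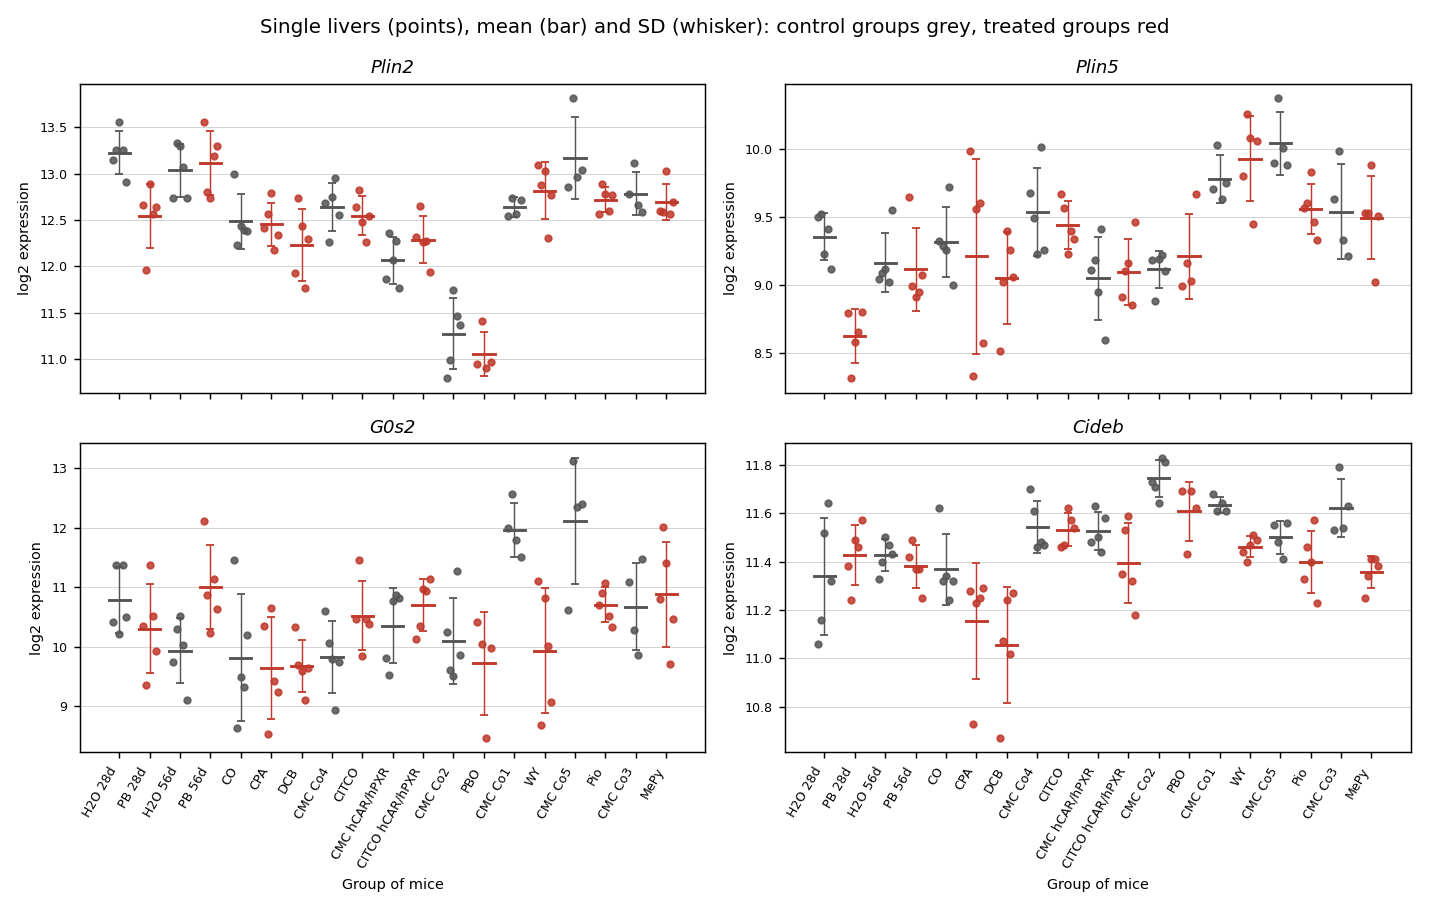
Log2 expression in each liver (points) with the group mean (bar) and SD (whisker) for Plin2, Plin5, G0s2 and Cideb in the 19 groups, controls grey and treated red. Plin2 and Plin5 are lower with 28 days of PB than in its water controls, G0s2 is lower with WY than in Co1, and the control groups differ among themselves by up to 2.29 for G0s2.

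Mogat1 encodes a monoacylglycerol acyltransferase, which makes diacylglycerol on the way to triglyceride. With Wy-14643 it was 10.00, 8.03, 10.10, 9.28 and 9.92, against 6.00, 6.64, 6.12 and 5.72 in Co1. Every treated liver was above every liver of Co1, and replicate 2 was the lowest of the 5. In 4.09% of all genes all treated livers were above all of Co1. The difference was 3.35 ± 0.301, or 10.2-fold (limma adjusted p 1.76e-14, exact permutation p 0.00794), and 3.19 to 3.71 with any of the 9 livers left out. For livers labelled methapyrilene it was 6.50, 6.22, 7.46, 5.73 and 6.40, and 5.78, 5.30, 5.70 and 5.87 in Co3. Here 4 of 5 were above all controls, at 0.80 ± 0.301, and the gene did not pass (adjusted p 0.494). In the other 8 comparisons it differed by −0.43 to 0.35.

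The pair that controls the first step of triglyceride breakdown moved in opposite directions with Wy-14643. Pnpla2, the gene of the lipase ATGL, was 8.84, 8.54, 8.93, 8.48 and 9.08, against 8.07, 7.99, 8.11 and 8.44 in Co1, and rose by 0.63 ± 0.140 (limma adjusted p 0.00118, exact permutation p 0.0159). All 5 treated livers were above all 4 controls, as were 4.09% of all genes. G0s2, which encodes the inhibitor of that lipase, was 11.10, 8.68, 10.81, 10.01 and 9.07, against 11.99, 12.56, 11.79 and 11.50. No treated liver reached the lowest control, which held for 5.08% of all genes. It fell by 2.03 ± 0.467 (limma adjusted p 0.00173, exact permutation p 0.0159), and stayed between −2.32 and −1.72 with any of the 9 livers left out. Its level in Co1, 11.96 ± 0.449 (SD, n = 4), was the next to highest of the 8 C57BL control groups, which ran from 9.82 to 12.11. Against the mean of the 5 CMC cohorts G0s2 fell by 1.00 ± 0.345, which passed with an adjusted p of 0.0393.

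For livers labelled pioglitazone G0s2 stood at −1.41 ± 0.467 and did not pass (limma adjusted p 0.324), with treated values from 10.33 to 11.07 and Co5 at 10.61, 13.12, 12.34 and 12.39. It was −1.08 ± 0.503 without Co5 replicate 2. After 56 days of PB it stood at 1.06 ± 0.440 (adjusted p 0.549), with 4 of 5 livers above all water controls. Pnpla2 stood at 0.41 ± 0.140 with PBO (adjusted p 0.160) and at −0.30 ± 0.132 with CPA (0.191).

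The responses to Wy-14643, in the livers labelled pioglitazone and in those labelled methapyrilene were compared gene by gene, each response being taken against its own CMC cohort. Doses and routes differed in part: Wy-14643 and pioglitazone were both at 100 mg/kg by gavage, and methapyrilene was at 1000 ppm in food. Responses of 4 members were lower in the livers labelled pioglitazone than with Wy-14643, where 1.57% of all genes were lower. The difference of the responses was −5.48 for Fabp4, −5.08 for Cidea, −3.56 for Mogat1 and −0.90 for Pnpla2, with limma adjusted p from 3.6e-09 to 0.00247, and each passed without any 1 of the 18 livers. Against the livers labelled methapyrilene 3 were lower, where 0.115% of all genes were: Fabp4 at −3.70 (limma adjusted p 0.0127), Cidec at −3.15 (0.00812) and Plin4 at −2.59 (0.0150). A fit to the compared groups alone passed none of the 3, with adjusted p of 0.243, 0.200 and 0.315. Fabp4 was lost without MePy replicate 2 or 5, where the adjusted p reached 0.0672, and Plin4 without MePy replicate 2 or 3, Co3 replicate 3 or Co5 replicate 2, where it reached 0.208. Cidea, at −3.16 with an adjusted p of 0.0910, passed without MePy replicate 4. The response of Mogat1 was lower in the livers labelled methapyrilene than with Wy-14643, at −2.55 (limma adjusted p 4.95e-05), the 1 member of 10 to pass, where 0.616% of all genes were lower. The members Cidec and Plin4 responded more there than with Wy-14643 by 1.14 (−0.09 to 2.38) and 0.98 (−0.11 to 2.07), and neither passed, and without MePy replicate 4 they were 1.88 and 1.5, which did not pass. G0s2 differed by 2.23 (0.92 to 3.55, adjusted p 0.0719), and passed without MePy replicate 4, WY replicate 1 or 3, or Co3 replicate 4. Cidea, at −1.92 (adjusted p 0.258), passed without WY replicate 2, at −3.08, and was −1.11 without MePy replicate 4.

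**Figure D4:**
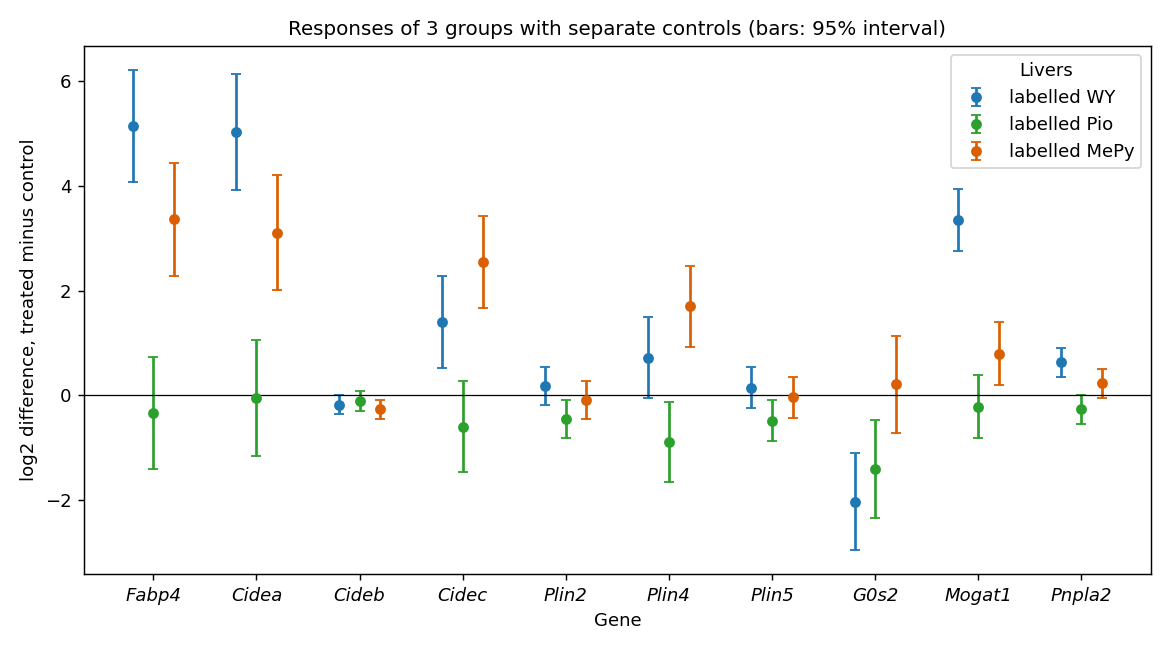
Log2 difference, treated minus control, with 95% intervals (bars) for each gene in the livers labelled WY (blue, 100 mg/kg), Pio (green, 100 mg/kg) and MePy (orange, 1000 ppm), each against its own CMC cohort. Fabp4 and Cidea are above 0 in the livers labelled WY and MePy, Mogat1 and Pnpla2 are highest in WY, and the intervals of Cidec and Plin4 overlap between WY and MePy.

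CPA and DCB shared their corn oil controls, and the responses of the members are given side by side. Cidec stood at −0.25 with CPA and 0.87 with DCB, Mogat1 at −0.43 and 0.35, Fabp4 at 0.03 and 0.56 and Plin4 at −0.60 and −0.37. Without corn oil replicate 1 these were 0.18 and 1.30 for Cidec, −0.01 and 0.76 for Mogat1, −0.13 and 0.40 for Fabp4 and −0.38 and −0.15 for Plin4, so that Cidec and Fabp4 changed sign with CPA, and none passed. None of the 10 members differed between the compounds at a limma adjusted p below 0.05, where 4.11% of all genes did. The nearest were Mogat1, lower with CPA at −0.77 (95% interval −1.34 to −0.21, adjusted p 0.118), and Cidec, at −1.13 (−1.95 to −0.30, 0.120). With CITCO the members differed by −0.60 to 0.69 in C57BL and by −0.13 to 0.34 in hCAR/hPXR mice, and 0 of the 10 differed between the strains (0.0055% of all genes did), with the smallest unadjusted p at 0.208. In C57BL mice given PBO the range was −0.38 to 0.88.

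Levels of the members also differed between control groups that had received no compound. An F test over the 8 C57BL control groups (37 livers) passed for 7 of the 10, where 44.4% of all genes passed. Plin2 ran from a mean of 11.27 in Co2 to 13.22 in the 28-day water controls (adjusted p 6.25e-16). Single livers of Co2 ran from 10.79 to 11.75. G0s2 ran from 9.82 with corn oil to 12.11 in Co5, and Fabp4 from 5.78 in Co2 to 8.29 with corn oil. Plin4, Plin5, Pnpla2 and Cideb differed by 1.41, 0.92, 0.60 and 0.40 between the lowest and the highest control group. Cidea, Cidec and Mogat1 did not pass (adjusted p 0.997, 0.466 and 0.0804). The 5 CMC cohorts shared their vehicle and 28 days of dosing, and served compounds given by gavage, intraperitoneally or in food. Between CMC, corn oil and water groups, vehicle and cohort cannot be told apart. The water groups shared a vehicle, and their duration cannot be told apart from cohort. What underlies these differences was not tested.

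Ordered by mean over the 19 groups, Fabp4 and Cidea were highest with Wy-14643 and next in the livers labelled methapyrilene, and the ranges of these groups overlapped. From the third place down neighbouring groups overlapped throughout for both genes. Cidec and Plin4 were highest in the livers labelled methapyrilene (means 7.11 and 8.69), followed by WY livers for Cidec (5.62) and Co5 for Plin4 (7.45), with overlapping ranges. Mogat1 was highest with Wy-14643 (9.46), and the next group mean was 6.46. Pnpla2 was highest with Wy-14643 (8.78) and lowest with CPA (7.70). Plin2 was lowest with PBO (11.06) and Co2 (11.27), its own control, and next in the hCAR/hPXR controls (12.06). Plin5 was highest in Co5 (10.04) and lowest with 28 days of PB (8.63), G0s2 was highest in Co5 and lowest with CPA (9.64), and Cideb was highest in Co2 (11.74) and lowest with DCB (11.05).

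A further list held 47 gene symbols of lipid uptake, synthesis, droplets and lipolysis, of which 41 were measured under that symbol. S3-12, an older name of the member Plin4, was among those not found. Of the 41, 11 rose and 1 fell with Wy-14643 (5.55% and 5.09% of all genes). The median difference was 0.17 against −0.04 for all genes. Lpl, the lipoprotein lipase gene, rose by 3.88 ± 0.456 (14.7-fold), the fatty acid receptor gene Cd36 by 2.69 ± 0.340, the fatty acid carrier gene Fabp5 by 2.24 ± 0.493 and the VLDL receptor gene Vldlr by 1.78 ± 0.198, each with all 5 treated livers above all controls. That order held for 4.09% of all genes. Cebpa, a transcription factor gene of hepatocytes and adipocytes, fell by 0.73. A fit to these 2 groups alone had 6 higher and 1 lower, and against the mean of the 5 CMC cohorts Fabp5 did not pass. For livers labelled methapyrilene 1 of 41 rose (0.148% of all genes), Cd36 at 1.76 ± 0.340 (limma adjusted p 0.00233, 0.0516 in a fit to these 2 groups alone), and Lpl, at 1.77 ± 0.456, did not (adjusted p 0.0851). For livers labelled pioglitazone none passed, with Cd36 at −0.42 and Lpl at 0.04. Pparg itself stood at 0.16 with Wy-14643, −0.23 in the livers labelled pioglitazone and 0.22 in those labelled methapyrilene.

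With CPA 4 of the 41 rose and 9 fell, where 2.62% of all genes rose and 2.70% fell, and the median was −0.26 against 0.02 for all genes. The phosphatidate phosphatase gene Lpin1 fell by 1.63, Lpl by 1.49, Ppara, the gene of PPARα, by 1.14 and the fatty acid synthase gene Fasn by 1.00. A fit to these 2 groups alone left 0 higher and 2 lower, of which Ppara was 1. Leaving out 1 of the 10 livers ended the call of Lpin1 in 3 cases (CPA replicates 2 and 3, corn oil replicate 4), of Lpl in 5 (CPA replicates 2 and 3, corn oil replicates 2, 3 and 4) and of Fasn in 6 (CPA replicates 1, 2 and 3, corn oil replicates 2, 3 and 5). The differences then ran from −2.05 to −1.04 for Lpin1, from −2.05 to −1.15 for Lpl and from −1.34 to −0.56 for Fasn, and Ppara passed each time. With DCB 3 rose and 2 fell, where 2.15% of all genes rose and 1.67% fell. Cd36 rose by 1.42 ± 0.321, Pparg by 0.73 ± 0.202 and Abhd5, which encodes the activator of ATGL, by 0.63, while Ppara fell by 0.67 and Dgat2, a gene of the last step of triglyceride synthesis, by 0.46. Cd36 and Pparg also passed in a fit to these 2 groups alone, the other 3 did not, and Pparg did not pass without corn oil replicate 2, where the difference was 0.62. After 28 days of PB Mgll, the monoacylglycerol lipase gene, fell by 0.67 and the glycerol phosphate dehydrogenase gene Gpd1 by 0.63. Neither passed with the mean of all probe sets of a gene. Leaving out 1 of the 10 livers ended the call of Mgll in 5 cases (PB replicates 2 and 5, water replicates 1, 2 and 3). That of Gpd1 ended in 4 (PB replicates 2 and 3, water replicates 2 and 4). After 56 days Srebf1, a regulator of fatty acid synthesis, fell by 0.97, a call lost without any of 7 of the 10 livers. With PBO Cd36 rose by 1.90 ± 0.340 (limma adjusted p 0.000349, 0.0527 in a fit to these 2 groups alone), and with CITCO in either strain none of the 41 passed.

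Because Fabp4, Cidea and Cidec are also genes of fat tissue and Fabp4 of macrophages, markers of other cells were read beside them. Of 7 measured adipocyte markers that are not members, 0 rose and 1 fell with Wy-14643 (Pde3b by 0.42), and 0 of 7 passed in the livers labelled methapyrilene. The mean of these markers ran from 5.48 to 5.82 in single WY livers and 5.75 to 5.82 in Co1, and from 5.51 to 5.99 and 5.49 to 5.71 in MePy livers and Co3. The adiponectin gene Adipoq had group means from 3.38 to 3.68 and the leptin gene Lep from 4.42 to 4.70, over all 19 groups. Ucp1, which defines brown adipocytes, had group means from 3.92 to 4.25. Other listed markers were far higher in every group, with means from 10.72 to 11.31 for Pde3b, 7.29 to 8.61 for Ppargc1a and 9.32 to 12.31 for Elovl3. Of 7 brown adipocyte markers 2 rose with Wy-14643, Cox7a1 by 0.86 and Ppargc1a by 1.01, and Elovl3 fell by 2.35. In that comparison 5.55% of all genes rose and 5.09% fell. A fit to these 2 groups alone kept Ppargc1a, with an adjusted p of 0.0499, and not Cox7a1 or Elovl3. Of 12 macrophage markers 4 rose with Wy-14643, Cd5l by 1.68, Vsig4 by 1.53, Csf1r by 1.29 and Clec4f by 1.14, where 5.55% of all genes rose. The median was 0.89 over the list, and Cd5l and Vsig4 did not pass against the mean of the 5 CMC cohorts. None passed in the livers labelled methapyrilene, where the median was 0.84 and the list mean ran from 6.83 to 8.09 against 6.24 to 7.12 in Co3, nor in those labelled pioglitazone, where the median was 0.56. With PBO the macrophage marker Marco fell by 1.98, where 0.319% of all genes fell. It did not pass in a fit to PBO and Co2 livers alone (adjusted p 0.0882). Of 12 endothelial markers, which include Cd36, 2 rose with Wy-14643, Cd36 and Lyve1, the latter by 1.57 and not in a fit to these 2 groups alone (0.0869), and Cd36 alone in the livers labelled methapyrilene. Of 10 stellate markers Hgf rose by 0.72 with Wy-14643, and Col3a1 fell by 1.49 with CPA, where 2.7% of all genes fell. Neither passed in a fit to its compared groups alone (adjusted p 0.0912 and 0.0918). Of 2 measured pancreas markers Cela1 fell by 1.17 with Wy-14643, where 5.09% of all genes fell, and no muscle marker passed. The part of macrophages in the Fabp4 values was not tested. Acot1 and Ehhadh, PPARα targets of fatty acid oxidation, rose with Wy-14643 by 2.29 and 2.58, and stood at 0.58 and 0.36 in the livers labelled methapyrilene and −0.67 and −0.38 in those labelled pioglitazone, where neither passed. Cyp4a14, another PPARα target, passed in none of these groups. It differed by 2.29 ± 0.865 with Wy-14643 (limma adjusted p 0.0733) and by 1.63 ± 0.865 in the livers labelled methapyrilene (0.773), with all 5 livers above all controls in both, and by −1.48 ± 0.865 in those labelled pioglitazone (0.730). With Wy-14643 4.09% of all genes had all treated livers above all controls, and for the methapyrilene label that share was not counted.

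The 10 genes had 15 probe sets with a single symbol, and 3 genes had more than 1. Of the 4 for Fabp4, the one next in level to that used rose alike, by 4.86 ± 0.458 with Wy-14643 and 2.99 ± 0.458 in the livers labelled methapyrilene, both passing over all probe sets. The probe set with the lowest mean rose with Wy-14643 by 1.12 and stood at 0.35, not passing, in the livers labelled methapyrilene, and the fourth passed in no comparison. The other probe set of Plin5 stood at −0.60 ± 0.202 after 28 days of PB and did not pass (adjusted p 0.258). That of Pnpla2 stood at 0.27 ± 0.131 with Wy-14643 and did not pass (0.204).

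For each member the genes with the most similar profile were taken by the Pearson correlation of the 19 group means, as a description without a test. The group means share 1 normalization, and for members that are high in 1 or 2 groups those groups weigh most in the correlation. Fabp4 was followed by Mogat1 (0.884), Cidea (0.879) and the carbonic anhydrase gene Car2 (0.870). Cidea was nearest to Rad51b (0.925), Gprc5b (0.913) and Mogat1 (0.912), and Mogat1 to the keratin gene Krt23 (0.960), the peroxisome proliferator-inducible acyl-CoA thioesterase gene Acot2 (0.935) and Cox6b2 (0.933). Cidec was nearest to Ermp1 (0.913), Kbtbd11 (0.901) and Gprc5b (0.868). Plin2 was nearest to the mitochondrial carrier gene Slc25a30 (0.959), to Crot, which encodes the peroxisomal carnitine octanoyltransferase (0.928), and to the monocarboxylate transporter gene Slc16a1 (0.919). Plin4 was nearest to Jag1 (0.863), Pcx (0.793) and Dlat (0.756), and Plin5 to E2f8 (0.876), Adck2 (0.847) and Pnrc1 (0.824). G0s2 was nearest to Pcnp (0.860), Fzd7 (0.852) and Sall2 (0.811), Pnpla2 to Tbc1d20 (0.879), Oplah (0.874) and Vps41 (0.863), and Cideb to Dsg2 (0.937), Vegfa (0.936) and Abcc6 (0.927).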

How the data were processed

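Liver RNA was extracted with Qiazol and labelled with the 3'IVT Express kit, per the labels' protocols. The authors deposited log2 expression values, and the submitters' processing notes name RMA. That method gives all arrays 1 distribution, which hides shifts of the whole transcriptome, and it compresses differences between low values. Its version and the genome build are not given in the sources used here.

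Of 45037 probe sets, 34945 had 1 gene symbol, 932 several and 9160 none, and for each of 18193 genes the probe set of that symbol alone with the greatest mean was kept. A model with 1 mean per group was fitted in limma (version 3.58.1, R 4.3.3) to all 91 arrays in 19 groups, leaving 72 residual degrees of freedom, with a mean-variance trend. Tests were two-sided, adjusted by Benjamini and Hochberg over all 18193 genes, and passed below 0.05. This fit pools the spread of all groups, including groups that vary much more than others. All errors after ± are standard errors unless SD is stated. Groups and controls came from the labels, where random assignment is stated. Replicate numbers did not pair the mice: same-numbered livers of a comparison correlated by −0.321 to 0.223, so no block was used. The exact permutation test was two-sided on the difference of means.

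The members and the gene lists were chosen with earlier results of these data known, so counts over them are descriptions. All members are named. Of the lists, up to 4 members with the largest difference past the threshold are named per comparison, with fixed markers of exposure and cell type, and the 3 genes nearest to each member by correlation. Cebpa with Wy-14643, Dgat2 with DCB, and Pparg, Lpl and Cd36 where they did not pass were named after their values were seen. P-values take each liver as a separate mouse. The procedure was tested on simulated data. Other settings tried were the mean of all probe sets of a gene, no trend, robust variances, removal of genes with a mean under 5, median-centred arrays, a replicate block, only the compared groups in the fit, the 5 CMC cohorts as control and leaving out each liver. The exact permutation test was added after the data were seen.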

Additional observations from a re-analysis of the deposited data

Results flagged for a closer look

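Each of the 19 groups was searched, for each of the 10 genes, for a liver that stood apart from the others by Dixon's criterion at the 95% level. Of 190 combinations 14 were marked, and chance marks about 1 in 20, so no single mark carries weight by itself. Corn oil replicate 1 was marked in 4 genes: Cidea 5.95 (others 4.37 to 4.61), Cidec 6.36 (4.06 to 4.39), Plin2 13.00 (12.23 to 12.44) and Cideb 11.62 (11.24 to 11.34). This liver is a control of both CPA and DCB. MePy replicate 4 was marked in Cidec at 4.17 (others 7.51 to 8.25) and Plin4 at 6.61 (8.88 to 9.61), and MePy replicate 3 in Plin2 at 13.03 (12.56 to 12.69).

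Among the other marks, Co5 replicate 2 had Plin4 at 9.22 (others 6.71 to 6.96). Plin4 was 7.35 in replicate 4 of the hCAR/hPXR controls (6.40 to 6.64). Plin5 was 9.65 in replicate 1 of 56 days of PB (8.91 to 9.07) and 9.55 in replicate 5 of its water controls (9.02 to 9.12). Pnpla2 was 7.86 in replicate 3 of 56 days of PB (8.01 to 8.05). Plin2 was 11.41 in PBO replicate 2 (10.90 to 10.97), and Cideb was 10.73 in CPA replicate 2 (11.23 to 11.29). The Cidea value of 4.95 in WY replicate 2 was not marked, as the other 4 livers of that group spread from 9.55 to 12.29.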

How the results depend on the processing

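No difference of a member that had passed reversed its direction in any setting run. Counts of members were within 1.5 times those reported without a trend, with robust variances and with median-centred arrays. With the mean of all probe sets of a gene 1 member passed after 28 days of PB in place of 2, with Plin5 at an adjusted p of 0.0608. With low genes removed 2 passed in the livers labelled methapyrilene, as Cidea and Cidec fell under the minimum mean of 5. With only the compared groups in the fit 0 passed in the livers labelled methapyrilene, 0 with DCB and 0 between the livers labelled pioglitazone and methapyrilene. With the replicate number as a block, although the numbers do not pair the mice, 0 members passed after 28 days of PB (Plin2 0.0774, Plin5 0.064), 0 with DCB (Cideb 0.0638) and 0 between the livers labelled pioglitazone and methapyrilene (0.208, 0.182 and 0.154), and Cidec with Wy-14643 (0.0653) and Plin4 in the livers labelled methapyrilene (0.158) were lost. With the mean of the 5 CMC cohorts as control 2 members passed with PBO (Plin2 −1.44, G0s2 −1.21). In that setting 1 passed in the livers labelled pioglitazone (Cideb −0.21) and 6 in those labelled methapyrilene. Of all 18193 genes 4837 passed there with PBO, 1058 in the livers labelled pioglitazone and 2785 in those labelled methapyrilene.

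Leaving out 1 liver at a time, members passing ran from 0 to 2 for 28 days of PB, 0 to 1 for DCB, 5 to 6 for Wy-14643, 3 to 4 for the livers labelled methapyrilene, and 6 to 8 among control groups. Of the differences between responses, 4 to 5 passed for pioglitazone minus Wy-14643, 1 to 4 for pioglitazone minus methapyrilene and 1 to 2 for methapyrilene minus Wy-14643. For the comparisons with no member passing, the count stayed at 0 to 0.

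Counts over all genes moved more. With only the compared groups in the fit 332 genes passed after 28 days of PB (176 in the full fit), 289 with CPA (968), 320 with DCB (696), 0 with CITCO (1), 10 with PBO (147), 792 with Wy-14643 (1936), 11 in the livers labelled pioglitazone (4) and 4 in those labelled methapyrilene (33). Differences between responses counted 2 for the strains (1), 97 for methapyrilene minus Wy-14643 (222) and 371 for CPA minus DCB (748). With the replicate block the counts were 111 after 28 days of PB, 0 with CITCO, 91 with PBO, 928 with Wy-14643, 13 in the livers labelled methapyrilene, 243 for pioglitazone minus Wy-14643, 6 for pioglitazone minus methapyrilene and 120 for methapyrilene minus Wy-14643. With the 5 CMC cohorts as control they were 1896 with CITCO, 4837 with PBO, 1058 and 2785 in the livers labelled pioglitazone and methapyrilene. In the livers labelled pioglitazone 11 passed with the mean of probe sets, 8 with low genes removed and 8 with median-centred arrays, where CITCO gave 0. Leaving out 1 liver gave 88 to 162 for 28 days of PB, 602 to 1063 for CPA, 394 to 935 for DCB, 0 to 2 for CITCO, 7 to 32 in hCAR/hPXR mice, 71 to 271 for PBO, 1192 to 2238 for Wy-14643, 3 to 21 and 15 to 39 for the livers labelled pioglitazone and methapyrilene, 364 to 767 for pioglitazone minus Wy-14643, 9 to 31 for pioglitazone minus methapyrilene, 92 to 290 for methapyrilene minus Wy-14643, 1 to 2 for the strains and 0 to 2 for the durations of PB. The cause was not tested.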
